A study of Homo sapiens with 18 samples.

Results

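Uninduced SKMEL2 and uninduced SKMEL30 cells were compared at baseline, as 2 NRAS-mutant human melanoma lines of the same experiment. The comparison rests on 6 of the 18 libraries of the series, chosen because their labels name the line and give no treatment, with 3 libraries per line. By the study's methods both lines have a normal copy number of PPP2R3B. Both carry the same lentiviral tet-ON vector, pTRIPZ-PPP2R3B, under puromycin selection, from which PPP2R3B is expressed when doxycycline is added. No doxycycline was given to the libraries compared here. The other 12 libraries, 6 per line, came from cells induced for 6 hours or, by the labels, 18 hours, and enter only as separate libraries of the same lines. The paper gives a shorter time for the later induction, and the time of the labels is used throughout. Each group is 1 line carrying 1 vector, so a difference between the groups belongs to these lines as cultured and not to kinds of melanoma. By the study's methods the lines were cultured as their manufacturer instructs. Any difference in medium or batch between the lines cannot be told apart from the line itself. The labels do not say whether libraries came from separate cultures, so p-values measure the spread between libraries, which may be technical.

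Melanocytes descend from the neural crest and keep their identity through a small set of transcription factors, among them MITF, SOX10 and PAX3. MITF switches on the genes for melanin synthesis and for the melanosome, the organelle in which melanin is made and moved. Melanoma cells vary between pigmented, MITF-high states and less differentiated, invasive states in which receptors such as AXL and matrix genes are expressed, and lines with the same driver can differ in where they sit. Genes of lineage, pigment, adhesion, signalling, metabolism and immune recognition were therefore collected in 20 lists holding 866 genes.

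Library totals ran from 16335169 to 22383429 estimated counts. A floor of 3 counts corresponded to between 0.132 and 0.190 CPM, that is, counts scaled to a library size of 1000000 after adjustment by the trimmed mean of M values. The 9 melanocyte markers were at 1 CPM or more in every library, S100B and TYRP1 included. Replicates varied by 8.06% around the mean in SKMEL2 and by 3.99% in SKMEL30, as edgeR's common biological coefficient of variation. SKMEL2 replicate 3 stood apart from the other SKMEL2 libraries, with a chi-square per degree of freedom of 18.6 and 16.5 against them, where the remaining pair gave 4.24 and the SKMEL30 pairs 2.66 to 4.65. Without it the number of genes at least 2-fold higher in either line moved by at most 2 in each gene list, and of the named genes HOXA3 and HOXA4 lost their calls.

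Of 16120 genes tested, 12438 (77.2%) were called, that is, differed between the lines at an adjusted p under 0.05 by edgeR's quasi-likelihood test with Benjamini-Hochberg adjustment. The calls were divided almost evenly, 6499 (40.3%) higher in SKMEL2 and 5939 (36.8%) higher in SKMEL30. With so large a share called, a second rule that also asked for at least a 2-fold difference was used for most counts, and it was met by 5421 genes (33.6%), 3189 (19.8%) higher in SKMEL2 and 2232 (13.8%) higher in SKMEL30. The libraries of the lines did not overlap for 12847 genes (79.7%). The median absolute log2 difference was 0.64. Log2 differences are SKMEL2 over SKMEL30, so that negative values are higher in SKMEL30. Their errors, given as standard errors (SE), were derived from the log2 difference and the F statistic of the test. For genes with few counts in 1 line they can be smaller than the counting error. The list counts below are read against these shares, and genes named only to account for a count of 5 or fewer were named after their values were seen.

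The master regulators of melanocytes were expressed in both lines and differed by less than 2-fold. MITF, which drives the pigment genes, was at 421, 398 and 409 CPM in SKMEL2 and 788, 788 and 815 CPM in SKMEL30 (log2 difference -0.96 ± 0.046 SE, adjusted p = 5.74e-09). SOX10, which acts upstream of MITF, went the other way, with 573, 613 and 736 CPM in SKMEL2 and 455, 482 and 451 CPM in SKMEL30 (log2 difference 0.47 ± 0.081 SE, adjusted p = 2.43e-04). All SKMEL30 libraries lay above all SKMEL2 libraries for MITF and below them for SOX10. PAX3 and TFAP2A, which cooperate with them in the neural crest, were higher in SKMEL30, with log2 differences of -0.80 ± 0.084 and -0.81 ± 0.11. LEF1, a nuclear partner of beta-catenin, was higher in SKMEL2 (log2 difference 0.74 ± 0.070 SE, adjusted p = 1.69e-06), and IRF4, a MITF cofactor in pigment regulation, was slightly higher in SKMEL30 (log2 difference -0.30 ± 0.050 SE, adjusted p = 1.73e-04).

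Larger differences were found among the other neural crest and melanocyte factors, where 5 of 19 tested members were at least 2-fold higher in SKMEL2 and 4 at least 2-fold higher in SKMEL30. SOX6 was at 139, 121 and 128 CPM in SKMEL2 and 19.9, 21.4 and 20.7 CPM in SKMEL30 (log2 difference 2.64 ± 0.068 SE, adjusted p = 3.90e-11). ZEB1, a repressor of epithelial genes, was at 19, 16.8 and 20.5 CPM in SKMEL2 and had 1 count over the SKMEL30 libraries, a ratio of 977 (95% counting interval 175 to 38640). SOX6 and ZEB1 thus separated the lines with no overlap, as did TBX2, which ran in the opposite direction. TBX2, a T-box repressor, was at 5.38, 5.89 and 6.16 CPM in SKMEL2 and 117, 123 and 115 CPM in SKMEL30, 20.2-fold higher in SKMEL30 (edgeR adjusted p = 1.46e-12). ZEB2, the relative of ZEB1 found in melanocytes, was higher in SKMEL30 by a log2 difference of -0.31 ± 0.069. The remaining members past 2-fold were SOX5, TWIST1 and SNAI1, higher in SKMEL2 with log2 differences of 1.08, 1.17 and 1.24, and SNAI2, FOXD1 and TFEB, higher in SKMEL30 with -2.5, -1.98 and -1.57. SOX9, SOX2 and TFAP2B did not pass the filter on low counts, and SOX9 reached no more than 0.234 CPM in any library. Over all 25 tested lineage factors the median log2 difference was -0.0023, against 0.045 over all genes tested.

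Pigment genes were mostly higher in SKMEL30, some of them by a large factor. Of 45 listed pigment and melanosome genes, 44 were tested, and 14 were at least 2-fold higher in SKMEL30 against 1 in SKMEL2, BLOC1S1. Called genes numbered 34 higher in SKMEL30 and 6 higher in SKMEL2, and the median log2 difference was -0.52. Without SKMEL2 replicate 3 the 2-fold counts were 13 and 1. Without 3 members in stretches of the genome shifted at least 2-fold as a whole, they were 12 and 1 of 41.

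The upstream sequences of 4 pigment genes are shown because the genes share a letter motif and yet differ in how far, and in which direction, they separate the lines. MITF is known to bind E-boxes with the core CATGTG, which reads CACATG on the opposite strand. Each line below holds the 160 bases before the annotated start in RefSeq (GRCh38.p14), 5′ to 3′ on the gene's strand, with either form in capitals. RefSeq lists 2 starts for DCT, and the one shown, chosen because the motif lies before it, falls inside the span given for the gene.
TYRP1: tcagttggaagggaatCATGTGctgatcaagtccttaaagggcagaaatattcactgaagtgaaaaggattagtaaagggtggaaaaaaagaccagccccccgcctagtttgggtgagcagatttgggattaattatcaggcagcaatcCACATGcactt
TYR: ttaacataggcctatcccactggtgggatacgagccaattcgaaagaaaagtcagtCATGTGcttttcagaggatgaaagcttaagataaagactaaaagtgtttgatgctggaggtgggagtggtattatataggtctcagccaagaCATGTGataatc
DCT: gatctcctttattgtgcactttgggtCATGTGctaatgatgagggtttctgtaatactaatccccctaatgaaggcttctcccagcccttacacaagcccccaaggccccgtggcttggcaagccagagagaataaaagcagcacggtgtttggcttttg
OCA2: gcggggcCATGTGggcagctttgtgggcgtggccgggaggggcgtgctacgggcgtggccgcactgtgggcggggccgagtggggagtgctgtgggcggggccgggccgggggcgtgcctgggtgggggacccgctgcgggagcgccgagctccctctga
These stretches lie at chr9:12693225-12693384 on the plus strand for TYRP1, chr11:89177715-89177874 on the plus strand for TYR, chr13:94479683-94479842 on the minus strand for DCT and chr15:28099316-28099475 on the minus strand for OCA2. The motif begins 144 and 11 bases before the start of TYRP1 and 104 and 12 bases before that of TYR. In the stretches of DCT and OCA2 it begins 134 and 153 bases before the start. Within 250 bases upstream, CATGTG on either strand was present for 14 of the 34 pigment genes that had an entry (41.2%) and for 3129 of 27305 genes with an entry in all (11.5%). The stretches are reference sequence, and the lines' own sequence was not read.

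Among the melanin synthesis enzymes, TYRP1, TYR and DCT showed 3 different patterns. TYRP1, which stabilises tyrosinase and acts late in eumelanin synthesis, lies at chr9:12693385-12710285 and was at 3.45, 4.49 and 4.27 CPM in SKMEL2 against 1318, 1233 and 1292 CPM in SKMEL30. Its fitted difference was 312-fold (log2 difference -8.29 ± 0.085 SE, adjusted p = 2.59e-13). TYR, the rate-limiting enzyme, lies at chr11:89177875-89295759 and was at 439, 425 and 410 CPM in SKMEL2 and 232, 239 and 243 CPM in SKMEL30 (log2 difference 0.83 ± 0.046 SE, adjusted p = 1.79e-08). SKMEL2 was therefore nearly without TYRP1 reads and had the higher TYR level, with no overlap between the lines for either gene. DCT, the dopachrome tautomerase, was at 575, 542 and 509 CPM and 604, 604 and 598 CPM, a small difference (log2 difference -0.15 ± 0.053 SE, adjusted p = 0.0201). Its call was lost without SKMEL30 replicate 1, at an adjusted p of 0.0540, and in 3 further alternatives, at up to 0.399 when library totals alone were used, tests against a 2-fold limit aside.

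Among the structural proteins and antigens of the melanosome, PMEL, which forms the fibrils on which melanin is laid down, was at 1740, 1650 and 1306 CPM in SKMEL2 and 5499, 5298 and 5305 CPM in SKMEL30 (log2 difference -1.78 ± 0.092 SE, adjusted p = 1.12e-08). GPR143, a receptor of the melanosome membrane, was at 50.2, 51 and 37.1 CPM and 116, 119 and 117 CPM (log2 difference -1.36 ± 0.099 SE, adjusted p = 1.93e-07). SKMEL30 was higher for both, and in SKMEL2 replicate 3 both were lower than in the other SKMEL2 libraries. MLANA, the antigen recognised by Melan-A antibodies, was higher in SKMEL2, at 453, 428 and 431 CPM against 287, 287 and 301 CPM (log2 difference 0.59 ± 0.046 SE, adjusted p = 3.61e-07), whereas GPNMB differed by -0.29 ± 0.045.

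All 7 melanosome transporters and channels were called higher in SKMEL30. SLC45A2, a proton-coupled sugar transporter that keeps the melanosome from becoming acidic, was at 21.6, 21.1 and 21.7 CPM in SKMEL2 and 262, 273 and 269 CPM in SKMEL30 (log2 difference -3.64 ± 0.051 SE, adjusted p = 7.72e-13). OCA2, a chloride channel of the melanosome, was at 5.79, 5.74 and 5.72 CPM and 58.9, 55.6 and 55.8 CPM (log2 difference -3.3 ± 0.070 SE, adjusted p = 1.07e-11). TPCN2, an endolysosomal cation channel, was at 10.8, 11.6 and 10.1 CPM and 52.7, 56.5 and 50.3 CPM (log2 difference -2.3 ± 0.077 SE, adjusted p = 3.03e-10). The libraries of a line lay close together and the lines far apart for these 3 genes, while SLC24A5, a cation exchanger, differed by -0.89 ± 0.065. SLC45A2 and TPCN2 lie in stretches of chromosomes 5 and 11 whose genes as a whole were higher in SKMEL30, as described with the chromosomes, and 1 of the other 5 was at least 2-fold higher in SKMEL30.

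The machinery that moves melanosomes along actin was higher in SKMEL30 in its 3 central parts. RAB27A, which marks the melanosome, was at 82, 80.5 and 74.6 CPM and 242, 251 and 261 CPM (log2 difference -1.67 ± 0.053 SE, adjusted p = 2.12e-10). MLPH, the linker, was at 47.8, 49 and 49.9 CPM and 200, 200 and 196 CPM (log2 difference -2.02 ± 0.046 SE, adjusted p = 1.72e-11). MYO5A, the motor, was at 309, 271 and 282 CPM and 693, 706 and 657 CPM (log2 difference -1.26 ± 0.057 SE, adjusted p = 3.82e-09). In each case every SKMEL30 library exceeded every SKMEL2 library by more than 2-fold. Sorting and biogenesis genes differed less, with 5 of 22 at least 2-fold higher in SKMEL30, BLOC1S2 and HPS6 among them at -1.49 ± 0.081 and -1.41 ± 0.087, and BLOC1S1 at 1.18 ± 0.11 as the single gene in the other direction. The receptors MC1R and EDNRB were higher in SKMEL30, with log2 differences of -0.39 ± 0.069 and -0.83 ± 0.047, and KIT reached no more than 0.643 CPM and was not tested.

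**Figure D1:**
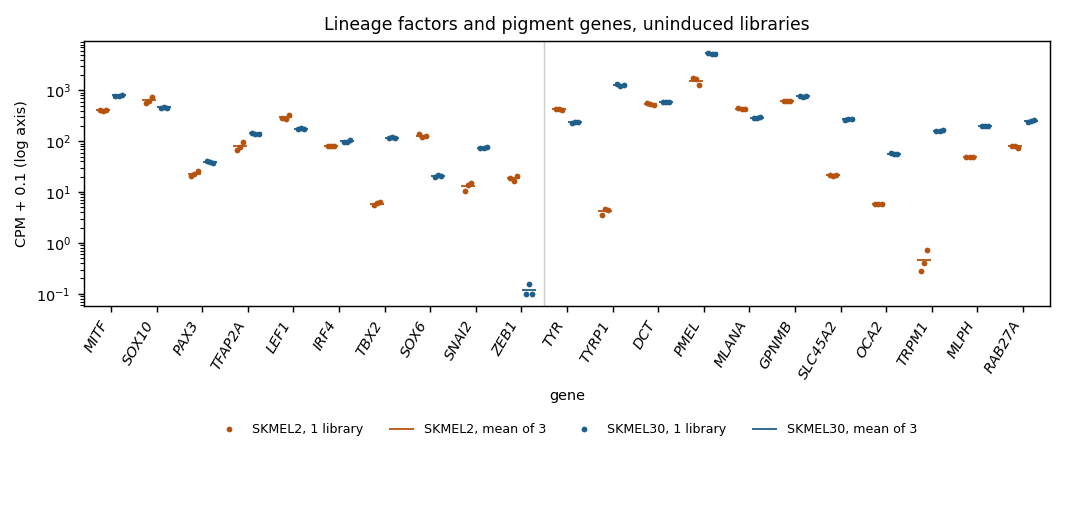
CPM + 0.1 on a log axis for 10 lineage factors and 11 pigment or MITF target genes, with 1 point per uninduced library and a bar at the mean of the 3 libraries of each line. MITF, SOX10, TYR, DCT and MLANA lie close together in the lines, while TYRP1 at 3.45, 4.49 and 4.27 CPM in SKMEL2 and TRPM1 at under 1 CPM in SKMEL2 lie far below SKMEL30, and ZEB1 lies far above it.

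MITF targets outside the pigment list were also mostly higher in SKMEL30. Of 25 tested, 13 were at least 2-fold higher in SKMEL30 and 1, CAPN3 with a log2 difference of 1.65, was at least 2-fold higher in SKMEL2, with a median of -1.11. TRPM1, a cation channel whose gene is a classical MITF target, was at 0.175, 0.299 and 0.616 CPM in SKMEL2 and 158, 162 and 164 CPM in SKMEL30 (log2 difference -8.69 ± 0.13 SE, adjusted p = 1.11e-12). PPARGC1A, the coactivator of mitochondrial biogenesis, was at 2.34, 1.95 and 2.86 CPM and 33.4, 34.4 and 37.9 CPM (log2 difference -3.87 ± 0.12 SE, adjusted p = 1.52e-10). BCL2A1, an anti-apoptotic protein, was at 15.6, 14.5 and 14.7 CPM and 134, 133 and 144 CPM (log2 difference -3.2 ± 0.061 SE, adjusted p = 5.05e-12). None of these 3 genes overlapped between the lines, and only BCL2A1 stayed above 10 CPM in SKMEL2. APOE, an apolipoprotein, was 11.8-fold higher in SKMEL30 (edgeR adjusted p = 1.04e-11), and MET, the receptor for hepatocyte growth factor, was 4.58-fold higher (edgeR adjusted p = 7.03e-12). With at least 10 counts asked of every library, the median of this list was -0.83.

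Genes of the undifferentiated and invasive state showed the opposite balance, with 15 of 36 tested at least 2-fold higher in SKMEL2 and 5 at least 2-fold higher in SKMEL30. The levels of several were modest. AXL, the receptor most used to mark the state, was at 21, 27.5 and 30.1 CPM in SKMEL2 and 0.844, 0.981 and 0.948 CPM in SKMEL30 (log2 difference 4.82 ± 0.19 SE, adjusted p = 1.21e-09). TGFBI, a secreted matrix protein, was at 97.9, 106 and 103 CPM and 1.58, 0.818 and 1.2 CPM (log2 difference 6.41 ± 0.12 SE, adjusted p = 4.24e-12). ANKRD1, a target of the YAP and TAZ coactivators, was at 44, 61 and 58.2 CPM and 2.98, 2.13 and 3.03 CPM (log2 difference 4.33 ± 0.16 SE, adjusted p = 8.53e-10). All SKMEL2 libraries were above all SKMEL30 libraries for these 3, and AXL was lowest in SKMEL2 replicate 1. MMP2, a protease of the matrix, was higher in SKMEL2, with a log2 difference of 4.9 ± 0.27. FOSL1, the AP-1 subunit also listed with this state, was higher in SKMEL30, at 31.8, 44 and 56.2 CPM against 128, 128 and 114 CPM (log2 difference -1.47 ± 0.15 SE, adjusted p = 3.10e-06). FOSL1 lies in a stretch of chromosome 11 whose genes as a whole were higher in SKMEL30. The other genes at least 2-fold higher in SKMEL30 were MMP1, CCL2, DKK1 and CXCL8, with log2 differences of -6.57, -6.12, -1.42 and -1.18. NGFR, a neural crest marker, did not separate the lines, at 46.2, 57 and 57.2 CPM and 49.4, 56.1 and 53 CPM (log2 difference 0.020 ± 0.084 SE, adjusted p = 0.834), and EGFR and WNT5A were below the filter, EGFR with 19 counts over the SKMEL2 libraries and 0 over the SKMEL30 libraries. With at least 10 counts asked of every library, 9 members were at least 2-fold higher in SKMEL2 and 3 in SKMEL30.

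Cadherins hold neighbouring cells together, and the lines differed in which ones were read. CDH1, the epithelial cadherin by which melanocytes attach to keratinocytes, was at 3.8, 3.79 and 4.0 CPM in SKMEL2 and 104, 101 and 103 CPM in SKMEL30 (log2 difference -4.73 ± 0.068 SE, adjusted p = 9.08e-13). CDH2, the mesenchymal cadherin, was at 0.351, 0.20 and 0.132 CPM and 52.6, 53.9 and 53.3 CPM (log2 difference -7.89 ± 0.14 SE, adjusted p = 3.52e-12). CDH3, the placental cadherin, was at 2.16, 2.25 and 3.52 CPM and 151, 146 and 151 CPM (log2 difference -5.79 ± 0.11 SE, adjusted p = 5.05e-12). The 3 classical cadherins were thus all high in every SKMEL30 library and low in every SKMEL2 library. CDH13, a cadherin anchored to the membrane without a cytoplasmic tail, was at 17.5, 16.8 and 18.2 CPM in SKMEL2 and had 2 counts over the SKMEL30 libraries, a ratio of 455 (95% counting interval 126 to 3761). CDH19, the Schwann cell and melanoma cadherin, was higher in SKMEL2 by 0.89 ± 0.075. In the class of cadherins and catenins 4 of 11 were at least 2-fold higher in SKMEL30 and 3 in SKMEL2, CDH11 and JUP besides CDH13, and the 4th gene in SKMEL30 was CDH4 at -2.3.

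Adhesion molecules of the immunoglobulin and other classes were split evenly, 5 of 20 at least 2-fold higher in each line. ALCAM, an activated leukocyte adhesion molecule linked with melanoma progression, was at 354, 359 and 374 CPM in SKMEL2 and 60.3, 58.8 and 57.9 CPM in SKMEL30 (log2 difference 2.62 ± 0.048 SE, adjusted p = 3.85e-12). JAM3, of the junctional adhesion molecules, was at 15.8, 17.8 and 17.9 CPM and 1.58, 1.53 and 1.58 CPM (log2 difference 3.46 ± 0.12 SE, adjusted p = 5.44e-10). Both were higher in every SKMEL2 library. L1CAM, by contrast, was higher in SKMEL30 (-0.92 ± 0.080), and MCAM, the melanoma cell adhesion molecule, differed little (log2 difference 0.22 ± 0.058 SE, adjusted p = 0.00496). ICAM1 overlapped between the lines, at 117, 107 and 131 CPM and 113, 120 and 112 CPM (edgeR adjusted p = 0.599). Among junction proteins CLDN11 was at 4.44, 5.39 and 6.03 CPM in SKMEL2 and had 6 counts over the SKMEL30 libraries, a ratio of 46.4 (95% counting interval 21.1 to 127). Over the whole adhesion list the 2-fold counts were 11 in SKMEL2 and 10 in SKMEL30 of 39 tested, with a median of 0.041.

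Integrins, the receptors for matrix, leaned to SKMEL2, with 7 of 15 at least 2-fold higher there and 2, ITGA3 and ITGB8, in SKMEL30. ITGB3, the subunit that pairs with ITGAV and marks invasive melanoma, was at 532, 461 and 454 CPM in SKMEL2 and 94.2, 98.4 and 96 CPM in SKMEL30 (log2 difference 2.33 ± 0.065 SE, adjusted p = 7.53e-11). ITGA4, which binds fibronectin and VCAM1, was at 46.2, 49.4 and 49.9 CPM and 2.03, 2.56 and 1.96 CPM (log2 difference 4.46 ± 0.10 SE, adjusted p = 1.47e-11). ITGA5, the fibronectin receptor subunit, was at 22, 23.5 and 21.4 CPM and 2.59, 1.96 and 1.33 CPM (log2 difference 3.49 ± 0.15 SE, adjusted p = 2.86e-09). For each of the 3 the lines were clearly apart. ITGA6 was higher in SKMEL2 by 0.72 ± 0.048, and ITGB1, the common beta subunit, was at 729, 727 and 749 CPM and 687, 717 and 724 CPM and was not called (edgeR adjusted p = 0.322), although it was called when library totals alone were used, at an adjusted p of 0.013.

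Matrix genes were sharply divided, with 13 of 32 at least 2-fold higher in SKMEL2 and 12 in SKMEL30. With at least 10 counts asked of every library, 4 of 21 were at least 2-fold higher in SKMEL2. The median then went from -0.20 to -0.75. FN1, fibronectin, was at 379, 462 and 526 CPM in SKMEL2 and 4429, 4382 and 4205 CPM in SKMEL30 (log2 difference -3.25 ± 0.10 SE, adjusted p = 2.14e-10). COL4A1 and COL4A2 encode the chains of basement membrane collagen and lie side by side at chr13:110148963-110307157 and chr13:110307284-110513209. COL4A1 was at 187, 183 and 178 CPM in SKMEL30 and had 3 counts over the SKMEL2 libraries, a ratio of 3644 (95% counting interval 1247 to 17680). COL4A2 was at 0.409, 0.399 and 0.308 CPM in SKMEL2 and 357, 359 and 337 CPM in SKMEL30, 938-fold apart (edgeR adjusted p = 2.31e-13). SKMEL2 was therefore close to lacking reads of both neighbouring collagen genes. SPP1, osteopontin, was 18.5-fold higher in SKMEL30, at 184, 179 and 193 CPM against 10.2, 10.2 and 9.68 CPM (edgeR adjusted p = 9.08e-13). LAMA2, a laminin chain, ran the other way, at 24.7, 23.5 and 23.3 CPM in SKMEL2 and 0.619, 0.818 and 0.316 CPM in SKMEL30 (log2 difference 5.3 ± 0.17 SE, adjusted p = 2.03e-10). SPARC and the proteoglycan CSPG4 were high in both lines, with log2 differences of -0.27 ± 0.052 and 0.32 ± 0.077. Over integrins and matrix together the median was 0.72, and it turned to -0.22 when at least 10 counts were asked of every library, which left out genes near 0 in 1 line.

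**Figure D2:**
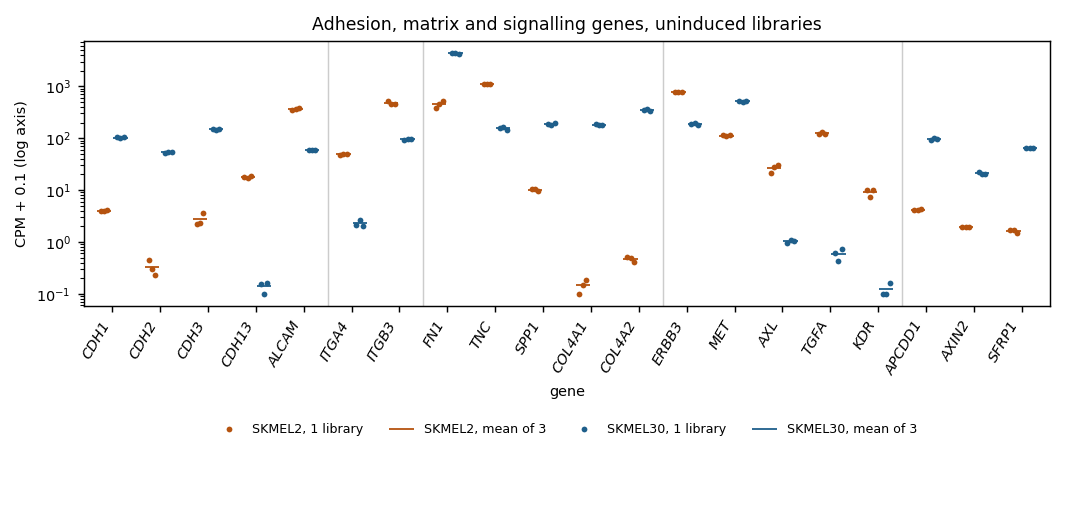
CPM + 0.1 on a log axis for 20 adhesion, matrix and signalling genes, with 1 point per uninduced library and a bar at the mean of 3. CDH1, CDH2, CDH3, FN1, SPP1, COL4A1 and COL4A2 lie higher in SKMEL30, and CDH13, ALCAM, ITGA4, ITGB3, ERBB3, AXL, TGFA and KDR lie higher in SKMEL2, with all libraries of a line on the same side.

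The lines also differed in the growth factor receptors that were read. Of 34 receptor tyrosine kinases listed, 22 were tested, and 8 were at least 2-fold higher in SKMEL2 and 7 in SKMEL30. With at least 10 counts asked of every library, 18 kinases were left. Of these, 4 were at least 2-fold higher in SKMEL2, and the median went from 0.31 to -0.056. ERBB3, the neuregulin receptor, was at 787, 763 and 786 CPM in SKMEL2 and 185, 194 and 181 CPM in SKMEL30 (log2 difference 2.06 ± 0.048 SE, adjusted p = 2.03e-11). MET, given above among the MITF targets, was at 113, 110 and 113 CPM and 513, 503 and 523 CPM. The more highly read of these receptors thus went in opposite directions. FLT1 and KDR, receptors for vascular endothelial growth factors, were both higher in SKMEL2. FLT1 was at 21.1, 19.4 and 23.1 CPM against 0.394, 0.545 and 0.506 CPM (log2 difference 5.44 ± 0.16 SE, adjusted p = 1.32e-10), and KDR was at 9.88, 7.28 and 10.03 CPM with 1 count over the SKMEL30 libraries, a ratio of 471 (95% counting interval 84.2 to 18630). FGFR3 was higher in SKMEL2 (4.88 ± 0.30) and FGFR1 higher in SKMEL30 (-1.55 ± 0.11). IGF1R differed slightly (log2 difference -0.16 ± 0.053 SE, adjusted p = 0.0187) and lost its call without SKMEL2 replicate 2 or SKMEL30 replicate 1, at adjusted p of 0.0744 and 0.0680, and in 2 further alternatives, at up to 0.335. Among 15 ligands tested of 25 listed, 7 were at least 2-fold higher in SKMEL2 and 2, FGF5 and PDGFA, in SKMEL30. The filter of 10 counts in every library left 8 ligands, 3 past 2-fold in SKMEL2 and 1 in SKMEL30. TGFA, a ligand of EGFR, was at 121, 130 and 119 CPM in SKMEL2 and 0.507, 0.327 and 0.632 CPM in SKMEL30 (log2 difference 7.98 ± 0.12 SE, adjusted p = 1.03e-12), although EGFR itself was below the filter in both lines.

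In the ERK pathway downstream of these receptors, most differences were small. Of 33 genes, 3 were at least 2-fold higher in SKMEL2 and 4 in SKMEL30, 21.2% together against 33.6% of all genes tested. Without 3 members in shifted stretches the counts were 3 and 2 of 30. NRAS itself was at 310, 304 and 290 CPM in SKMEL2 and 348, 350 and 354 CPM in SKMEL30 (log2 difference -0.22 ± 0.044 SE, adjusted p = 7.63e-04). PEBP1, an inhibitor of RAF, was higher in SKMEL30 (-1.25 ± 0.056) and the scaffold KSR1 higher in SKMEL2 (1.07 ± 0.13). Of the feedback genes that report ERK output, DUSP6 differed by 0.22 ± 0.053, SPRY2 by -0.42 ± 0.051, ETV5 by -0.38 ± 0.049, SPRY4 by 0.90 ± 0.069 and SPRY1 by 1.85 ± 0.079. DUSP6, SPRY1 and SPRY4 were higher in every SKMEL2 library, and SPRY2 and ETV5 in every SKMEL30 library. EPHA2 was also at least 2-fold higher in SKMEL2, and FOSL1 and EGR1 at least 2-fold higher in SKMEL30.

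In the WNT pathway 9 of 22 tested genes were at least 2-fold higher in SKMEL30 and 2, FZD1 and DKK3, in SKMEL2. The former included the feedback genes commonly read as output of beta-catenin. AXIN2, the scaffold of the destruction complex, was at 1.87, 1.8 and 1.85 CPM in SKMEL2 and 22.6, 19.9 and 20.2 CPM in SKMEL30 (log2 difference -3.51 ± 0.12 SE, adjusted p = 2.62e-10). NKD1, a feedback inhibitor, was at 0.175, 0.15 and 0.264 CPM and 10.3, 10.3 and 9.93 CPM (log2 difference -5.62 ± 0.21 SE, adjusted p = 7.99e-10). APCDD1, another inhibitor, was at 3.98, 4.09 and 4.13 CPM and 92.8, 98.7 and 95.9 CPM (log2 difference -4.55 ± 0.070 SE, adjusted p = 1.11e-12). All 3 were near the floor or low in SKMEL2 and separated the lines, as did the secreted antagonist SFRP1, at 1.58, 1.6 and 1.36 CPM against 64.3, 64.3 and 65.8 CPM (log2 difference -5.42 ± 0.087 SE, adjusted p = 1.39e-12). The median over the tested WNT genes was -0.10, and most receptors and core members differed by less than 2-fold. LRP5 and ZNRF3, a receptor and a ligase that removes receptors, named here for their position, lie in stretches of chromosomes 11 and 22 that were higher in SKMEL30 as a whole. Without them 7 of 20 genes were at least 2-fold higher in SKMEL30, and the median was 0.030. LEF1, a partner of beta-catenin counted among the lineage factors, was higher in SKMEL2.

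Among the PI3K and AKT genes, 4 of 18 were at least 2-fold higher in SKMEL2 and 0 in SKMEL30, where 6 were called higher by smaller margins. PIK3R3, a regulatory subunit, was at 342, 336 and 300 CPM in SKMEL2 and 68.3, 69.6 and 71.8 CPM in SKMEL30 (log2 difference 2.22 ± 0.060 SE, adjusted p = 5.32e-11). PIK3CD, a catalytic subunit, was higher by 1.71 ± 0.063, the phosphatase PHLPP1 by 1.3 ± 0.067 and the mTOR inhibitor DEPTOR by 1.69 ± 0.22. In the NOTCH pathway DLL3, an inhibitory ligand, was at 1.64, 1.95 and 1.41 CPM in SKMEL2 and 54.7, 54.9 and 56.6 CPM in SKMEL30 (log2 difference -5.06 ± 0.098 SE, adjusted p = 5.52e-12), against MAML2, a coactivator, at 1.57 ± 0.088. Of 18 TGF-beta and BMP genes tested, 8 were called higher in SKMEL2 and 9 in SKMEL30, with a median of 0.012. In each direction 2 were past 2-fold. ID1, a target of bone morphogenetic protein signalling, was higher in SKMEL2 (log2 difference 2.22 ± 0.12 SE, adjusted p = 1.12e-08), and SKIL, an inhibitor of SMAD signalling, likewise (log2 difference 1.65 ± 0.062 SE, adjusted p = 8.02e-10).

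Genes of S phase and mitosis were mostly higher in SKMEL30, few of them past 2-fold. All 28 tested were called, 24 higher in SKMEL30 and 4 in SKMEL2, with a median of -0.70, and 5 were past 2-fold in SKMEL30. MCM6, a subunit of the replicative helicase, was at 60.6, 67.9 and 64.8 CPM in SKMEL2 and 262, 267 and 266 CPM in SKMEL30 (log2 difference -2.04 ± 0.052 SE, adjusted p = 3.60e-11). RRM2, the ribonucleotide reductase subunit, was at 149, 191 and 181 CPM and 404, 396 and 425 CPM (log2 difference -1.23 ± 0.079 SE, adjusted p = 6.86e-08). MCM6 and MCM5 lie in stretches where genes as a whole were higher in SKMEL30, and without members in such stretches 3 genes were past 2-fold. The genes higher in SKMEL2 were MCM2, MCM7, BUB1B and CENPF, with log2 differences of 1.0, 0.40, 0.68 and 0.42. Growth rate and the share of cycling cells were not measured in these libraries.

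Regulators of G1 were more divided. CDKN1A, which encodes p21, was at 5.67, 5.69 and 5.45 CPM in SKMEL2 and 33.5, 33 and 31.4 CPM in SKMEL30 (log2 difference -2.54 ± 0.077 SE, adjusted p = 1.46e-10). CDKN1C, which encodes p57, ran the other way, at 12.8, 17.3 and 15.1 CPM and 2.36, 3.6 and 3.48 CPM (log2 difference 2.26 ± 0.17 SE, adjusted p = 2.11e-07). CDK6 was at 479, 418 and 429 CPM and 118, 116 and 110 CPM (log2 difference 1.94 ± 0.060 SE, adjusted p = 1.68e-10). SKMEL2 had the higher CDK6, and SKMEL30 the higher CCND1 (-0.76 ± 0.046) and CDKN2A (-0.96 ± 0.083). CCND1 lies in a stretch of chromosome 11 whose genes as a whole were higher in SKMEL30. CDKN2A, CDKN2B and the adjoining MTAP, a region often deleted in melanoma, were read in every library of both lines, CDKN2A at 22.9, 25.7 and 29.2 CPM and 48.3, 51.8 and 51.8 CPM. MTAP was higher in SKMEL2 (1.21 ± 0.054).

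Many metabolic genes were higher in SKMEL30, those of cholesterol synthesis among them. Of 23 cholesterol genes tested, 15 were at least 2-fold higher in SKMEL30 and 2 in SKMEL2, with a median of -1.20. HMGCS1, which makes HMG-CoA, was at 32.6, 32.7 and 28.7 CPM in SKMEL2 and 214, 223 and 228 CPM in SKMEL30 (log2 difference -2.83 ± 0.062 SE, adjusted p = 1.25e-11). FDPS, which makes farnesyl pyrophosphate, was at 62.4, 62.1 and 59.4 CPM and 213, 214 and 230 CPM (log2 difference -1.84 ± 0.052 SE, adjusted p = 7.53e-11). DHCR7, which completes cholesterol, was at 20.1, 21.4 and 24.5 CPM and 187, 197 and 203 CPM (log2 difference -3.15 ± 0.072 SE, adjusted p = 1.79e-11). These 3 genes, from early, middle and last steps of the pathway, were higher in every SKMEL30 library. SREBF2, the transcription factor of the pathway, ran the other way, with a log2 difference of 1.01. HMGCS1, DHCR7 and TM7SF2 lie in stretches higher in SKMEL30 as a whole, and without them 12 of 20 were at least 2-fold higher in SKMEL30, with a median of -1.17.

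Fatty acid genes were mostly called higher in SKMEL30, 16 of 21 against 5 in SKMEL2, with a median of -0.66. Past 2-fold they were divided, 5 in SKMEL30 and 4 in SKMEL2. SCD, the stearoyl-CoA desaturase, was at 460, 415 and 431 CPM in SKMEL2 and 1922, 1977 and 2032 CPM in SKMEL30 (log2 difference -2.18 ± 0.056 SE, adjusted p = 3.91e-11), and ACSL1, an acyl-CoA synthetase, differed by -2.3 ± 0.066. The binding proteins split, FABP3 higher in SKMEL30 (-4.62 ± 0.21) and FABP5 in SKMEL2, at 70.2, 81.6 and 72.3 CPM against 3.1, 2.56 and 2.34 CPM (log2 difference 4.8 ± 0.11 SE, adjusted p = 1.43e-11). FABP7, the brain-type binding protein, had 136 counts over the SKMEL2 libraries and 1 over the SKMEL30 libraries.

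In glycolysis 20 of 26 genes were called higher in SKMEL30 and 3 in SKMEL2, and 5 and 1 were past 2-fold. ENO2, the neuronal enolase, was at 52.4, 53.9 and 48.9 CPM in SKMEL2 and 282, 287 and 279 CPM in SKMEL30 (log2 difference -2.45 ± 0.051 SE, adjusted p = 9.71e-12). HK1, a hexokinase, and LDHA, a lactate dehydrogenase, were higher in SKMEL30 (-1.07 ± 0.054 and -0.63 ± 0.056). PFKFB4, which sets the level of fructose 2,6-bisphosphate, was the exception past 2-fold, at 219, 221 and 208 CPM and 49.2, 52.4 and 51.7 CPM (log2 difference 2.08 ± 0.051 SE, adjusted p = 2.69e-11). LDHB differed slightly (log2 difference -0.19 ± 0.070 SE, adjusted p = 0.0264) and lost its call without SKMEL30 replicate 3, at an adjusted p of 0.0733, and in 2 further alternatives, at up to 0.280.

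Nuclear-encoded genes of the respiratory chain and ATP synthase were mostly higher in SKMEL30 by small margins, 49 of 74 called higher in SKMEL30 and 6 in SKMEL2, with a median of -0.32. NDUFV1, which binds NADH in complex I, was at 37, 38.5 and 32.8 CPM in SKMEL2 and 215, 210 and 201 CPM in SKMEL30 (log2 difference -2.53 ± 0.064 SE, adjusted p = 3.47e-11). NDUFS8, another complex I subunit, was at 22.7, 24.5 and 25.6 CPM and 105, 108 and 98.6 CPM (log2 difference -2.09 ± 0.063 SE, adjusted p = 1.30e-10). UQCR10 of complex III differed by -2.11 ± 0.078. These 3 and 5 further members lie in the stretches that were shifted between the lines as a whole. All 13 genes past 2-fold were higher in SKMEL30, and 6 of them remained when those 8 members were left out.

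The mRNAs of the mitochondrial genome itself took 6.88% ± 1.53 (SD, n = 3) of counts in SKMEL2 and 5.86% ± 0.195 (SD, n = 3) in SKMEL30. The difference of 1.02 percentage points did not exceed the spread by an exact two-sided permutation test, p = 0.2, where 3 against 3 libraries can reach 0.1. SKMEL2 replicate 3 held 8.64%, and without it the difference was 0.141 percentage points. Of the 13 genes, 5 were called higher in SKMEL2 and 0 in SKMEL30 with all libraries, and 5 and 7 without SKMEL2 replicate 3. Those at least 2-fold higher in SKMEL2 went from 2 to 0 without it. MT-ATP6, a subunit of ATP synthase, was at 6712, 6223 and 9860 CPM in SKMEL2 and 3723, 3809 and 3548 CPM in SKMEL30 (log2 difference 1.04 ± 0.14 SE, adjusted p = 3.19e-05). Its nuclear copy MTATP6P1, chosen after its values were seen, had 10327, 10659 and 16686 counts in SKMEL2 and 5564, 5923 and 4894 in SKMEL30, and MTCO3P12, a nuclear copy of MT-CO3, had 14905, 17185 and 37990 counts and 21, 18 and 24. Reads of these near-identical copies can be assigned to either locus, so the levels of the mitochondrial genes are uncertain.

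Redox genes contained some of the largest single differences. PRDX1, a peroxiredoxin that reduces hydrogen peroxide, lies at chr1:45511051-45522890 and was at 708, 712 and 580 CPM in SKMEL2 and 12, 13.9 and 16.4 CPM in SKMEL30 (log2 difference 5.57 ± 0.12 SE, adjusted p = 9.63e-12). GSTP1, a glutathione transferase, was at 63.8, 68.7 and 67.9 CPM and 713, 713 and 696 CPM (log2 difference -3.4 ± 0.051 SE, adjusted p = 1.03e-12). ME1, the cytosolic malic enzyme that supplies NADPH, was at 48.8, 42.6 and 43.5 CPM in SKMEL2 and had 1 count over the SKMEL30 libraries, a ratio of 2323 (95% counting interval 417 to 91770). ME1 was thus close to SKMEL2 alone, PRDX1 was 47.4-fold higher in SKMEL2 and GSTP1 was 10.6-fold higher in SKMEL30. NQO1, a quinone reductase, was higher in SKMEL30 (-1.35 ± 0.060), and ALDH1A1 and ALDH1A3, which oxidise retinal, were higher in SKMEL2 (2.48 ± 0.13 and 2.2 ± 0.068). GSTP1 lies in the stretch of chromosome 11 that was higher in SKMEL30, and outside such stretches 8 of 25 redox genes were at least 2-fold higher in SKMEL2 and 1 in SKMEL30. Among amino acid genes the counts were equal, 3 of 29 past 2-fold in each line, with PHGDH and GOT1 higher in SKMEL30 (-1.09 ± 0.049 and -1.37 ± 0.063), ASNS higher in SKMEL2 (1.18 ± 0.088) and BCAT1 at 9.76, 12.2 and 9.68 CPM in SKMEL2 against 4 counts over the SKMEL30 libraries.

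**Figure D3:**
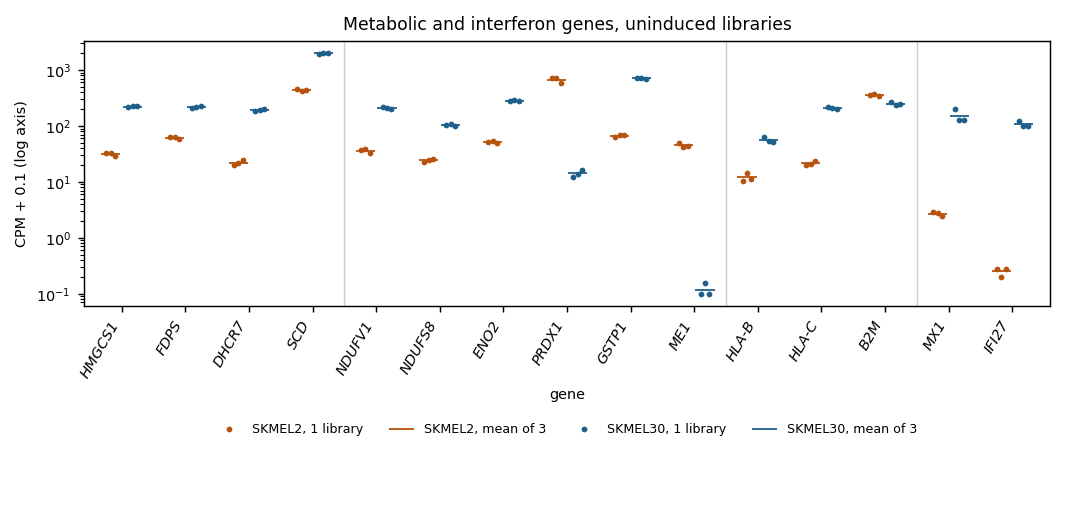
CPM + 0.1 on a log axis for 15 metabolic, antigen presentation and interferon genes, with 1 point per uninduced library and a bar at the mean of 3. SKMEL30 lies higher for HMGCS1, FDPS, DHCR7, HLA-B, HLA-C, MX1 and IFI27, and SKMEL2 lies higher for PRDX1, ME1 and B2M.

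Interferon response genes, which are induced together by interferons, were called higher in SKMEL30 in 23 of 23 cases, 18 of them at least 2-fold, with a median of -2.22. MX1, an antiviral GTPase, was at 2.75, 2.69 and 2.33 CPM in SKMEL2 and 201, 130 and 125 CPM in SKMEL30 (log2 difference -5.88 ± 0.23 SE, adjusted p = 9.38e-10). IFI27 was at 0.175, 0.0998 and 0.176 CPM, 9 counts in all, and 121, 99.1 and 101 CPM (log2 difference -9.41 ± 0.18 SE, adjusted p = 4.88e-12). SKMEL30 replicate 1 was the highest library for both genes, and the groups stayed apart without it. IFITM1 was at 11.1, 7.03 and 5.88 CPM in SKMEL30 and had 1 count over the SKMEL2 libraries. The median of the list was -2.10 without SKMEL30 replicate 1 and ran from -1.65 with a stricter filter to -2.43 without SKMEL2 replicate 3. CD274, which encodes PD-L1, was low in both lines (-0.99 ± 0.20).

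Class I antigen presentation genes were also mostly higher in SKMEL30, with 9 of 12 called there and 6 of them at least 2-fold, against 0 past 2-fold in SKMEL2. HLA-C was at 19.9, 20.6 and 24 CPM in SKMEL2 and 222, 209 and 198 CPM in SKMEL30 (log2 difference -3.28 ± 0.076 SE, adjusted p = 1.93e-11), and HLA-B at 10.3, 14.3 and 11.1 CPM and 64.1, 52.8 and 52.2 CPM (log2 difference -2.24 ± 0.12 SE, adjusted p = 1.36e-08). These heavy chain genes are near-identical and vary between people, so their reads may be shared or lost to alleles unlike the reference. B2M, the invariant light chain, was instead higher in SKMEL2, at 363, 365 and 336 CPM and 264, 239 and 249 CPM (log2 difference 0.50 ± 0.053 SE, adjusted p = 4.56e-06), and the tapasin gene TAPBP was the other gene called in that direction (0.78). CD74, the class II invariant chain, was higher in SKMEL2 (log2 difference 2.14 ± 0.12 SE, adjusted p = 2.11e-08), while 6 of 8 class II genes were at least 2-fold higher in SKMEL30, HLA-DRA among them at 0.234, 0.649 and 0.44 CPM and 5.52, 5.01 and 5.31 CPM (log2 difference -3.54 ± 0.26 SE, adjusted p = 2.29e-07).

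**Figure D4:**
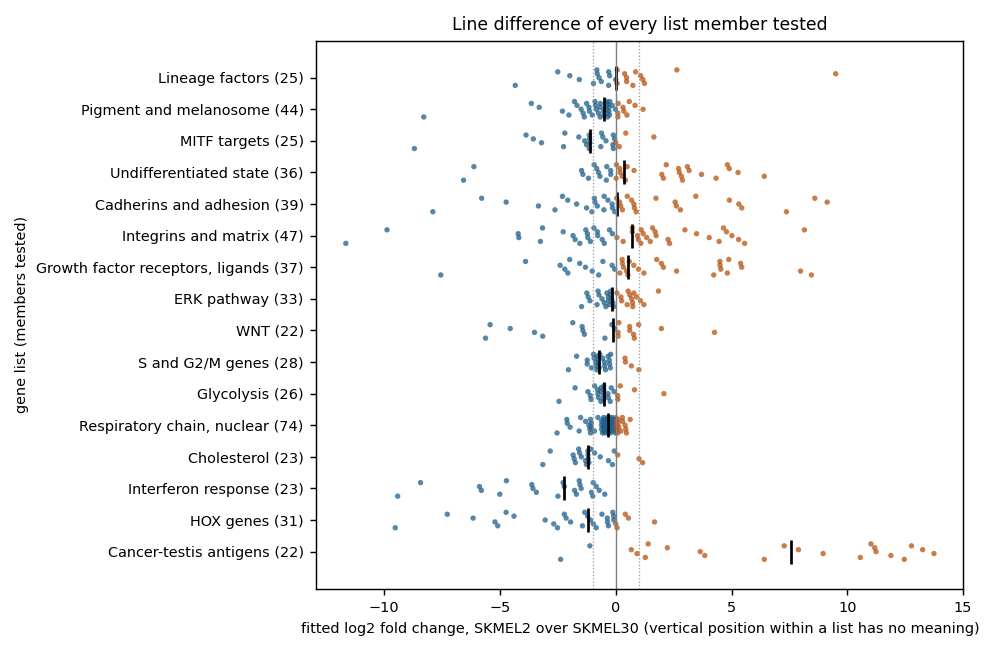
Fitted log2 difference, SKMEL2 over SKMEL30, of every tested member of 16 gene lists, with a black bar at the list median and dotted lines at 2-fold. Interferon response, cholesterol, MITF target and HOX genes lie mostly left of 0, cancer-testis antigens lie mostly right of 0, and fitted values beyond about 10 either way belong to genes at or near 0 counts in 1 line and depend on the fit's prior count.

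Some genes were read in 1 line only, defined as at least 10 CPM in every library of that line and at most 3 counts in each library of the other. There were 131 such genes for SKMEL2, 106 of them protein-coding, and 30 for SKMEL30. PRAME, a cancer-testis antigen used in the pathology of melanoma, was the one with the highest level, at 433, 447 and 444 CPM in SKMEL2 and 2 counts over the SKMEL30 libraries, a ratio of 11470 (95% counting interval 3175 to 94730). TFPI2, a protease inhibitor, had 9019 counts over the SKMEL2 libraries and 1 over the SKMEL30 libraries, and IGFBP7, a secreted binding protein, 7497 and 4. On the SKMEL30 side COL4A1 was followed by ADAM23, a membrane protein without protease activity, at 52.7, 54.2 and 56.4 CPM and 0 counts in SKMEL2, at least 357-fold higher against a floor of 3 counts per library. NEFL, the neurofilament light chain, and THBD, thrombomodulin, followed with 2716 and 2632 counts over the SKMEL30 libraries against 5 and 1. Other genes at 0 counts in SKMEL30 were NLRP2, CA8, NAA11 and ENPP4, which were at least 416-fold, 357-fold, 343-fold and 299-fold higher in SKMEL2 against the same floor. Of the 131 genes, 24 (18.3%) lay on chromosome X, which holds 3.48% of the genes tested. They included cancer-testis genes such as MAGEB2, SSX1 and PAGE5. Over all 561 tested genes of chromosome X the median log2 difference was 0.13.

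Cancer-testis antigens, germ cell genes that are silent in most tissues and are re-expressed in tumours, had 22 tested members, of which 18 were at least 2-fold higher in SKMEL2 and 2, TEX14 and CTNNA2, in SKMEL30. Their median of 7.58 became 6.37 when the 4 members at 0 counts in 1 line were set to their bound. With at least 10 counts asked of every library, 9 members were left, 6 at least 2-fold higher in SKMEL2 and 1 in SKMEL30, with a median of 1.45, and with no filter the median over 30 members was 4.12. PAGE5 and MAGEB1 were at 90.9, 99.3 and 85.5 CPM and 48.5, 46.4 and 45.6 CPM in SKMEL2 and at 0 counts in SKMEL30, at least 528-fold and 269-fold higher. MAGEB2 had 8715 counts over the SKMEL2 libraries and 1 over the SKMEL30 libraries. Members of the MAGEA and SSX families are near-identical, so which paralog was expressed is uncertain. The 11 members below the filter included MAGEA4 and CTAG1B.

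HOX genes mark position along the body axis and lie in 4 clusters, which are given one by one. In the A cluster 0 of 7 tested genes were past 2-fold in either direction. In the B and C clusters 7 of 9 and 6 of 8 were at least 2-fold higher in SKMEL30, and in the D cluster 4 of 7 were, with HOXD10 at 1.68 in the other direction. HOXB2 was at 18.5, 19.4 and 19.5 CPM in SKMEL30 with 7 counts over the SKMEL2 libraries. HOXD4 was at 0.292, 0.649 and 0.748 CPM in SKMEL2 and 12.6, 11.4 and 13.1 CPM in SKMEL30 (log2 difference -4.39 ± 0.21 SE, adjusted p = 5.42e-09), and HOXC10 at 1.58, 2.35 and 2.95 CPM and 10.5, 11.1 and 11.1 CPM (log2 difference -2.22 ± 0.18 SE, adjusted p = 4.08e-07). HOXA3 (log2 difference 0.42 ± 0.16 SE, adjusted p = 0.037) and HOXA4 (log2 difference 0.55 ± 0.19 SE, adjusted p = 0.0218) were called higher in SKMEL2, HOXA3 with overlapping libraries, and both lost their calls when SKMEL2 replicate 3 was left out, at adjusted p of 0.142 and 0.0755, or SKMEL30 replicate 2, at 0.140 and 0.107. HOXA3 also lost its call without SKMEL2 replicate 1 or SKMEL30 replicate 1, at 0.0802 and 0.0950, with DESeq2, at 0.0657, and with limma voom, at 0.0934. Levels stayed under 20 CPM for all HOX genes but HOXB7, and with at least 10 counts asked of every library 8 genes were past 2-fold in SKMEL30.

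The difference between the lines was also ordered along the chromosomes (positions in GRCh38). The median log2 difference was -0.96 over 350 genes of chromosome 22, -0.69 over 259 of chromosome 13 and -0.37 over 848 of chromosome 17. It was 0.44 over 855 genes of chromosome 3 and 0.37 over 727 of chromosome 7. On chromosome 13, 70.3% of genes were called higher in SKMEL30 against 36.8% of all genes, and on chromosome 3, 62.3% were called higher in SKMEL2 against 40.3% of all genes. In windows of 10 Mb holding at least 20 tested genes, 12 of 260 had a median difference of 2-fold or more, 9 of them higher in SKMEL30. These held 731 genes and included 60 to 80 Mb of chromosome 11, with medians of -1.01 and -1.22, and 0 to 10 Mb and 30 to 50 Mb of chromosome 5, with medians of -1.20, -1.05 and -1.0. On chromosome 22 they covered 20 to 40 Mb and the end beyond 50 Mb, the latter at -1.90, with 0 of 22 genes called higher in SKMEL2. The windows higher in SKMEL2 were 90 to 100 Mb of chromosome 5, 20 to 30 Mb of chromosome 19 and 160 to 170 Mb of chromosome 6, at 1.36, 1.20 and 1.14. Copy number was not measured in these libraries, and its part in the differences was not tested. Single genes went with or against their surroundings, and those given here were picked after their values were seen. MITF, on chromosome 3, was higher in SKMEL30, and PRAME, on chromosome 22, was read in SKMEL2, each against its chromosome. SLC45A2 on chromosome 5 and GSTP1 and DHCR7 on chromosome 11 were higher in SKMEL30, as were their windows.

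**Figure D5:**
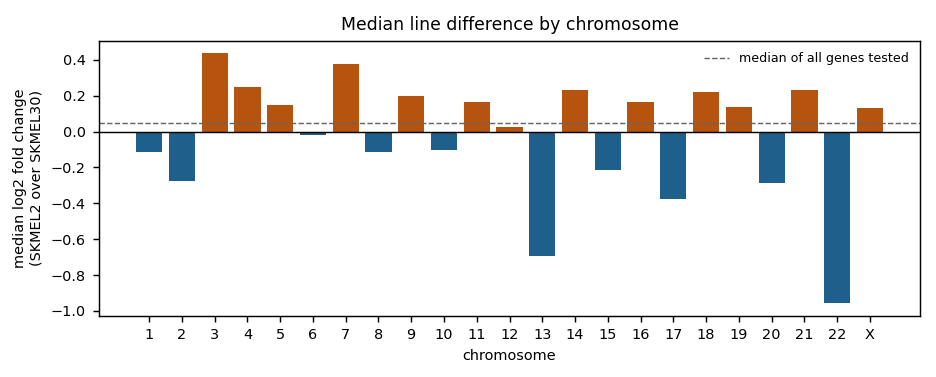
Median fitted log2 difference, SKMEL2 over SKMEL30, of the genes tested on each chromosome, with bars from 0 and a dashed line at the median of all genes tested, 0.045. Chromosomes 22, 13 and 17 at -0.96, -0.69 and -0.37 lie lowest, and chromosomes 3 and 7 at 0.44 and 0.37 lie highest.

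The gene that the vector carries was not called between the uninduced lines. PPP2R3B, a regulatory subunit of the phosphatase PP2A, was at 24.4, 20.6 and 17.2 CPM in SKMEL2 and 22.4, 19.8 and 20.6 CPM in SKMEL30 (log2 difference -0.02 ± 0.12 SE, adjusted p = 0.865), and the libraries overlapped. Reads of the resident gene and of the vector cannot be told apart in these counts. C21orf91, the gene followed up in the induction experiment, was higher in SKMEL30 at baseline, at 119, 95 and 92.1 CPM and 190, 186 and 191 CPM (log2 difference -0.89 ± 0.082 SE, adjusted p = 1.37e-06). Of 14 tested PP2A subunits, 3 were at least 2-fold higher in SKMEL30, PPP2R5D, PPP2R2D and PPP2R5B at -1.52 ± 0.056, -1.16 ± 0.066 and -1.15 ± 0.14, and 1, PPP2R2B, in SKMEL2 at 4.11. PPP2R5B lies in a stretch of chromosome 11 whose genes as a whole were higher in SKMEL30.

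The line difference was then set beside that of the induced libraries, which are different libraries of the same cells. At 6 hours 11429 of 15814 genes were called (72.3%), 36.8% higher in SKMEL2 and 35.4% higher in SKMEL30. At 18 hours 12932 of 16059 were called (80.5%), 41.8% and 38.7%. Of the genes called at baseline and at 6 hours, 10743 of 10744 had the same direction, and these were 86.4% of the baseline calls and 94.0% of those at 6 hours. At 18 hours the same held for 11540 of 11542. Of the 205 named genes called at baseline, 200 were called in the same direction at 6 hours and 203 at 18 hours. The change of the line difference itself, tested as an interaction in edgeR over all 18 libraries and 17133 genes, gave 0 calls at 6 hours, with 842 genes at an unadjusted p under 0.05, and 1 call at 18 hours (0.00584%), LIF, with 884. For TYRP1 the log2 difference was -7.44 at 6 hours and -7.76 at 18 hours, and for MITF it was -0.88 and -0.90.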

How the data were processed

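RNA was extracted with RNeasy columns and libraries made with the KAPA mRNA HyperPrep kit. The authors trimmed 43-base paired reads, aligned them with STAR to Ensembl GRCh38 release 86 and deposited RSEM 1.3.0 expected counts per gene. The methods give Cutadapt 1.9.1 and STAR 2.5.2a, and the submitters' processing notes cutadapt 1.5, STAR 2.2.2a and Trimmomatic 0.36. The estimated counts, of which 12.3% were not whole, were rounded. Genes passing filterByExpr were scaled by TMM and tested with edgeR 4.0.16 (R 4.3.3) in the 6 uninduced libraries. The study's DESeq2 (1.42.0), limma 3.58.1, other scalings and filters, thinning, single libraries left out and a replicate block were alternatives. Residuals of same-numbered libraries correlated at -0.012, 0.031 and -0.0041, and those of differently numbered libraries at -0.040 to 0.043. No pairing by replicate number was thus seen, and the main test used none. With 3 libraries per line these values cannot show whether same-numbered libraries were handled together. On simulated counts over 15656 genes, 70.1% of 97 genes changed by 1 on the log2 scale and 69.4% of 98 changed by 0.5 were recovered. There were 15 calls among unchanged genes. Far fewer genes were changed in the simulation than were called in the data. These values therefore give neither the recovery nor the share of false calls in the comparison itself.

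Members and lists were chosen with earlier results of these data known. Named genes were those marked beforehand in the lists, the 3 called members per class with the largest difference among those at 5 CPM or more in the higher line, the 8 protein-coding genes per direction with the largest difference at 50 CPM or more, and the 5 highest per direction among genes read in 1 line only. Some genes are counted in the lists but not reported here. Of 889 list entries, 4 matched no gene (GSTT1, SOD2, CT45A1 and PECAM1). Counting intervals and floors cover counting error only. Strand use in counting is not given in the sources used here, so antisense partners cannot be told apart.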

Additional observations from a re-analysis of the deposited data

Results flagged for a closer look

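LIF, a cytokine of the interleukin 6 family, was the only gene whose line difference changed between uninduced and induced libraries by the edgeR interaction test over all 18 libraries. It was chosen after its values were seen. LIF lies in a stretch of chromosome 22 whose genes as a whole were higher in SKMEL30. In the uninduced libraries it was at 13.2, 15.6 and 15 CPM in SKMEL2 and 42, 44.2 and 46.7 CPM in SKMEL30 (log2 difference -1.6 ± 0.078 SE, adjusted p = 6.70e-09). Scaled to the library total alone, LIF was at 13.7, 16.2 and 15.2 CPM in uninduced SKMEL2 and 40.4, 42.7 and 45.2 CPM in uninduced SKMEL30. At 18 hours, on the same scale, it was at 12, 11.6 and 11.3 CPM in SKMEL2 and 53.4, 54.9 and 58.3 CPM in SKMEL30. The line difference moved by -0.78 ± 0.10 (SE) on the log2 scale, from -1.60 to -2.38 (edgeR adjusted p = 0.00495). On the scale of library totals, every SKMEL2 library at 18 hours was below, and every SKMEL30 library above, all uninduced libraries of its line. The same libraries picked the gene, so this order adds no support.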

How the results depend on the processing

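The count of 12438 called genes ran from 12028 to 12651 with 1 library left out and was 11669 with DESeq2. Asking for at least 10 counts in every library brought the genes past 2-fold from 5421 to 3069, and to 2873 and 2971 at 6 and 18 hours. Testing against a log2 difference of 1 with glmTreat called 4270 genes, 2525 higher in SKMEL2 and 1745 in SKMEL30. Genes read in 1 line only were 205 and 55 at 5 CPM and 47 and 5 when 0 counts were asked of the other line. Library totals alone moved the median of all genes by 0.096, turned the median of chromosome 6 to 0.077 and PPP2R3B to 0.075. A filter of 10 counts in every library gave 0.096 for chromosome 21, -0.22 for integrins and matrix and 0.023 for PPP2R3B. With 1 library left out PPP2R3B ran from -0.15 to 0.10, NGFR from -0.034 to 0.11 and ICAM1 from -0.038 to 0.11, and ICAM1 was at -0.024 with limma voom. None of these 3 genes was called. Of 205 named genes called, 200 kept their call in every alternative but glmTreat, which tests another limit. The exceptions were DCT, IGF1R, LDHB, HOXA3 and HOXA4.

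With a replicate block 12146 genes were called, and the block changed no call of a named gene. Leaving out members in windows shifted at least 2-fold, an alternative chosen after seeing the data, changed the pigment, ERK, WNT, cell cycle, respiratory chain, cholesterol, redox and cytokine counts as given there, and moved the counts past 2-fold of the other gene groups described by at most 1. DESeq2 left some genes without an adjusted p, and these were not counted as lost. Levels under about 0.19 CPM rest on 3 counts or fewer, and differences there are not resolved at this depth.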

Other observations

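Cytokine, chemokine and receptor genes were at least 2-fold higher in SKMEL30 in 10 of 21 tested cases and in SKMEL2 in 3. IL6R, the receptor chain for interleukin 6, was at 18.2, 19.3 and 18.4 CPM in SKMEL2 and 212, 202 and 206 CPM in SKMEL30 (log2 difference -3.47 ± 0.054 SE, adjusted p = 1.11e-12). OSMR, the receptor chain for oncostatin M, was at 18.8, 18.7 and 21.5 CPM in SKMEL2 and had 2 counts over the SKMEL30 libraries, a ratio of 514 (95% counting interval 142 to 4248). IL18 had 319 counts over the SKMEL2 libraries and 3 over the SKMEL30 libraries. IL6R was thus read in both lines, and OSMR and IL18 were close to SKMEL2 alone. Without 4 members in stretches shifted at least 2-fold as a whole, OSMR among them, 9 of 17 genes were at least 2-fold higher in SKMEL30 and 2 in SKMEL2, and the median went from -0.73 to -1.17.

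Markers of other cell types were low but not equal. The summed level of 7 keratinocyte markers ran from 50.9 to 64.0 CPM in SKMEL2 and from 17.7 to 20.9 CPM in SKMEL30, with KRT1 at 3 counts or fewer everywhere and TP63 at 22.9, 21.3 and 23 CPM in SKMEL2 and 2 counts over the SKMEL30 libraries. The 9 fibroblast markers summed to between 19.1 and 20 CPM in SKMEL2 and 69.8 to 70.7 CPM in SKMEL30. The sum came mostly from FAP and LUM (-1.93 ± 0.065 and -3.34 ± 0.11), and DCN and COL1A1 were under the filter. FAP and LUM were the only 2 of 6 tested that were at least 2-fold higher in SKMEL30. The other 4 were at least 2-fold higher in SKMEL2, at means of no more than 1.9 CPM. Leukocyte markers summed to between 18.6 and 22.1 CPM in SKMEL2, mostly from LYZ, and to no more than 2.56 CPM in SKMEL30, with CD3E at 3 counts or fewer everywhere. Schwann cell markers, which melanocytes of neural crest origin also express in part, summed to between 425 and 450 CPM and between 315 and 329 CPM, with PMP2 higher in SKMEL2 (log2 difference 2.37 ± 0.11 SE, adjusted p = 3.36e-09).

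PRDX2, a paralog of PRDX1 chosen after its values were seen, mirrored it. It was at 2.16, 1.8 and 1.8 CPM in SKMEL2 and 39.7, 42.3 and 39 CPM in SKMEL30 (log2 difference -4.4 ± 0.098 SE, adjusted p = 1.37e-11), so that PRDX1 was high in SKMEL2 and PRDX2 in SKMEL30. Zinc finger genes with ZNF symbols on chromosome 19, also chosen after their values were seen, were mostly higher in SKMEL2. In the 20 to 30 Mb stretch 24 of 31 tested were called higher in SKMEL2 and 5 in SKMEL30, with a median of 1.81. On the rest of the chromosome 183 of 232 were called higher in SKMEL2 and 15 in SKMEL30, with a median of 0.92, against 40.3% and 36.8% of all genes tested. These genes arose by duplication and resemble one another, so reads may be shared among them.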
